A study of Mus musculus with 24 samples.

Results

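The regions described here were peaks of open chromatin that closed after LPS in macrophages of 1 genotype and not of the other. Of 184158 consensus peaks in the ATAC-seq table, 176815 lay on chromosomes 1 to 19 outside the stretch of chromosome 12 from 15.5 to 55.5 Mb, which surrounds the Ahr gene and was left out. A peak's level was its CPM, the count per M of the library's total count in peaks, averaged over the 6 libraries of a group. A peak was a WT-only peak when its mean with LPS was at most 0.5 of the unstimulated mean in WT, which had to be at least 1 CPM, while the same ratio in AhR-KO was above 0.8. An AhR-KO-only peak met the same limits with the genotypes exchanged. There were 1319 WT-only and 647 AhR-KO-only peaks, 1966 in all. The members were thus chosen by the measured group means of all 24 libraries, and the ratios, the level differences between groups and the counts of calls below describe these peaks and are not evidence for them.

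ATAC-seq reads the stretches of DNA that a transposase can reach. Here 24 libraries were made from mouse macrophages grown out of bone marrow (BMDMs), 6 for each combination of genotype (WT or AhR-KO) and treatment (unstimulated or LPS). AhR-KO mice carry a constitutive disruption of Ahr, so the receptor was missing during the whole differentiation and not only at stimulation. Cultures of both genotypes received GM-CSF (10 ng/ml), TGF-β (2 ng/ml) and 10% serum, which give macrophages resembling those of the lung alveoli, and a calcium ionophore (5 µM, 10 min) before harvest. LPS was added on day 6 at 97 EU/ml for 24 h. The labels attach the same treatment text to every library, and they do not state whether the LPS and unstimulated cultures of a number came from 1 animal. The study describes the libraries of a group as coming from separate animals of a single experiment.

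AhR, the aryl hydrocarbon receptor, enters the nucleus when it binds a ligand, pairs with ARNT and recognises a short core sequence in DNA. LPS activates macrophages through the receptor TLR4 and the factors NF-κB, AP-1 and the interferon-regulated STATs, and it also closes many distal elements that hold the resting state. In macrophages such elements are commonly bound by the lineage factors PU.1 (an ETS factor), RUNX and C/EBP.

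Sequences show what kind of DNA lay under these peaks. The central 200 bases are printed for the 3 peaks of each set that stood first by the interaction of genotype and LPS in edgeR. The central 300 bases are added for 2 further peaks, near Ets1 and in Rasa3, which were chosen after their values were seen because they hold the motifs that the shares below turn on. Capitals mark matches on either strand to the motifs of RUNX (TGTGGT, or ACCACA on the other strand), PU.1 (GAGGAAGT), the STAT site called GAS (TTCNNNGAA) and AP-1 (TGANTCA). The bases are those of GRCm38, the assembly behind mm10. The first 4 are WT-only peaks and the last 4 are AhR-KO-only peaks.
Adgb, chr10:10333593-10333792, plus strand: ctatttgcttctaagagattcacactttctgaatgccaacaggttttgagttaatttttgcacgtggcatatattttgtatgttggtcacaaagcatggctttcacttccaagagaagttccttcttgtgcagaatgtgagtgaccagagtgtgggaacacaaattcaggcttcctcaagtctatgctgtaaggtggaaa
Vnn3, chr10:23830195-23830394, plus strand: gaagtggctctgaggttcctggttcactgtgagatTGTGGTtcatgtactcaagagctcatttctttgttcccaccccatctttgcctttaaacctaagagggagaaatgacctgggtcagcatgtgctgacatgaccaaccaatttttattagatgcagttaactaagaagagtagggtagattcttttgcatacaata
Mfsd9, chr1:40792321-40792520, plus strand: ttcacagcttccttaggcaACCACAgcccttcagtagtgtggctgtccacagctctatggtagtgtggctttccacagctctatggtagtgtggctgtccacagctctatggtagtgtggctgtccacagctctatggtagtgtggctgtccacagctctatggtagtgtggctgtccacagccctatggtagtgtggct
Ets1, chr9:32650803-32651102, plus strand: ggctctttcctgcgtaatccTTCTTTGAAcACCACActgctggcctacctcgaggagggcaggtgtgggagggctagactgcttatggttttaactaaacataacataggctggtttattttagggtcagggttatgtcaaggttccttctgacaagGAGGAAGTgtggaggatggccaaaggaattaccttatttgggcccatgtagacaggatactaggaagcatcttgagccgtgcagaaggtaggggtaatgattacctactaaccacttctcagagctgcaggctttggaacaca
Dhrs3, chr4:144908971-144909170, plus strand: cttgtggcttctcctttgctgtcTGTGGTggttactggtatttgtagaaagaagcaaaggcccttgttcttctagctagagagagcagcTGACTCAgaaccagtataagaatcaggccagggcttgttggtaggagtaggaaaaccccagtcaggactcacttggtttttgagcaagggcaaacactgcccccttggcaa
Tspan14, chr14:40950100-40950299, plus strand: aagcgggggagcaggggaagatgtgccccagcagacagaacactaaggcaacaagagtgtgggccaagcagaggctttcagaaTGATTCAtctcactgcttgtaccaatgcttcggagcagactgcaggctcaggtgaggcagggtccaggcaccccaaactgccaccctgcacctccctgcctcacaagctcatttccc
Fli1, chr9:32509117-32509316, plus strand: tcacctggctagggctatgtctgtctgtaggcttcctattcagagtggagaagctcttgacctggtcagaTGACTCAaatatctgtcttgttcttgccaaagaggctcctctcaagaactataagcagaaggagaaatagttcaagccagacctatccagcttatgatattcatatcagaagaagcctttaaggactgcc
Rasa3, chr8:13640743-13641042, plus strand: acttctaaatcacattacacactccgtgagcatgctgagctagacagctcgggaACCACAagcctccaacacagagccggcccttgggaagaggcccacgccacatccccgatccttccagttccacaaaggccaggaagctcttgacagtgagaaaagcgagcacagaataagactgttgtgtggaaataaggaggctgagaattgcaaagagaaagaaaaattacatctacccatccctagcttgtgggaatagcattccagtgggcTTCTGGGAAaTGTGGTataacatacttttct
The printed stretches of Vnn3, Mfsd9 and Ets1 each held a RUNX match, and that of Adgb held none of the 4 motifs. In the Mfsd9 stretch a short unit repeats in tandem across most of the window, so reads there can be hard to place. All 3 of Dhrs3, Tspan14 and Fli1 held an AP-1 match. In the central 300 bases, 10.7% of AhR-KO-only peaks held one, below the 15.1% of all peaks with an AhR-KO unstimulated mean of 1 CPM or more. In Rasa3 a GAS match at bases 270 to 278 stood beside a RUNX match at bases 280 to 285, counted from the first printed base. In Ets1 a GAS match at bases 21 to 29 stood beside a RUNX match at bases 31 to 36.

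Closing in a single genotype was the rarer outcome. In WT, 13972 peaks fell to at most 0.5 of an unstimulated mean of 1 CPM or more. The AhR-KO ratio was also at most 0.5 in 9054 of them (64.8%), lay above 0.5 and up to 0.8 in 3599 (25.8%), and was above 0.8 in the 1319 WT-only peaks (9.44%). In AhR-KO, 15459 peaks closed. Of these, 8925 (57.7%) had a WT ratio of at most 0.5, 5887 (38.1%) had one above 0.5 and up to 0.8, and the 647 AhR-KO-only peaks made up 4.19%. A total of 8325 peaks met the limit in both genotypes with both unstimulated means at 1 CPM or more, and they serve as the comparison below under the name of peaks closed in both.

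**Figure D1:**
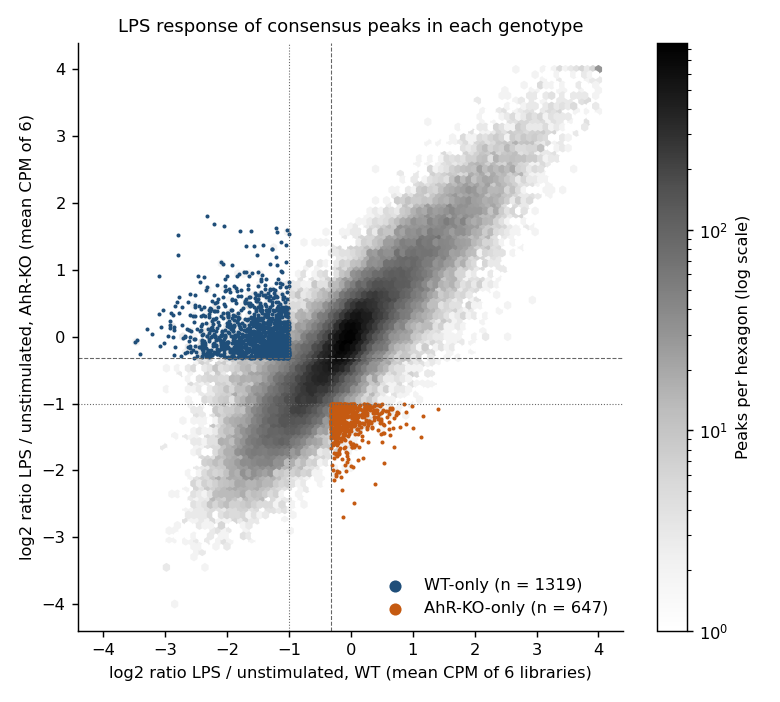
Log2 ratio of the mean CPM with LPS to the mean CPM without it, WT on the x axis and AhR-KO on the y axis, for peaks with an unstimulated mean of at least 1 CPM in either genotype. Grey hexagons count all such peaks on a log scale, blue points are the 1319 WT-only and orange points the 647 AhR-KO-only peaks, dotted lines mark the ratio 0.5 and dashed lines 0.8. Values beyond 4 are drawn at the edge, and both sets lie at the rim of 1 elongated cloud.

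The sets differed in how far they closed. In WT-only peaks the median ratio was 0.375 in WT and 0.969 in AhR-KO, and 227 of 1319 (17.2%) closed to 0.25 or less in WT. In AhR-KO-only peaks the median ratio was 0.445 in AhR-KO and 0.909 in WT, and 11 of 647 (1.70%) closed to 0.25 or less. In the genotype that did not close, the peak opened by at least 1.5-fold with LPS in 104 WT-only (7.88%) and 25 AhR-KO-only peaks (3.86%). The limits cut through a continuous range. The WT-only peaks nearest to 0.5, assigned to Dgkd and Sema6d, had WT ratios of 0.499883 and 0.499648, and the nearest peaks outside, at Paxip1 and Cobll1, had 0.500134 and 0.50047. Nearest to 0.8 in AhR-KO were Sh3bgrl2 and Fhit inside (0.800277 and 0.800457) and Tspan2 and Spry2 outside (0.799998 and 0.799988). Among AhR-KO-only peaks the neighbours of 0.5 were Prune1 and Smn1 inside (0.499834 and 0.499664) and Gm17332 and Med10 outside (0.500054 and 0.500192), and those of 0.8 were Plcl2 and Taar7e inside (0.800061 and 0.800185) and Chd1 and Clmn outside (0.79996 and 0.799645).

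WT-only peaks were largely peaks that AhR-KO macrophages lacked before LPS was given. The median level over the 1319 peaks was 1.98 CPM in WT unstimulated and 0.700 in WT LPS, against 0.411 in AhR-KO unstimulated and 0.435 in AhR-KO LPS. In 1090 of them (82.6%) the AhR-KO unstimulated mean was below 1 CPM, so the AhR-KO ratio near 1 compared 2 low levels. The unstimulated level was at least 1.5-fold lower in AhR-KO than in WT in 1258 peaks (95.4%) and at least 1.5-fold higher in 0, with a median log2 ratio of -2.30. Among all 113309 peaks with a WT unstimulated mean of 1 CPM or more it was 1.5-fold lower in 15.1%, and among peaks closed in both it was lower in 12.1%. Peaks closed in both had to hold 1 CPM or more in AhR-KO at rest, a limit that WT-only peaks did not have. Among the 229 WT-only peaks that also reached 1 CPM there, the unstimulated level was 1.5-fold lower in 176 (76.9%). With LPS the level was still at least 1.5-fold lower in AhR-KO in 722 WT-only peaks (54.7%), within 1.5-fold in 544 and higher in 53. Of the lists of marker genes for 9 cell types, the summed level of that for mast cells and basophils was lower in every AhR-KO unstimulated library than in any WT unstimulated one. In 2 of its 4 genes, Kit and Gata2, a peak lay at the TSS, and their sum was 14.9 to 20.2 CPM in WT unstimulated and 9.38 to 11.6 in AhR-KO unstimulated libraries, while the defining genes Cpa3 and Ms4a2 had no peak. Unlike the WT-only peaks, this sum did not fall with LPS in WT, where it was 18.9 to 24.97 CPM. The epithelial list had a TSS peak in 2 of 3 genes, and its sum was lower both in AhR-KO at rest and with LPS in WT, with overlap, at 11.1 to 16.9 CPM in WT unstimulated, 10.3 to 12.1 in AhR-KO unstimulated and 10.3 to 11.9 in WT LPS. The B cell sum, given with the immunoglobulin peaks, was also lower on average in AhR-KO at rest. The part of these cell types in the levels was not tested. All 10 macrophage markers had a TSS peak, at group means of 11.5 to 68.0 CPM, none of the 6 T cell markers did, and 0 of the marker peaks belonged to either set. In bulk libraries, fewer cells with a region open and less opening in each cell cannot be told apart.

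Libraries of the same group did not all show the WT-only peaks equally. Their summed level was 2282 to 4594 CPM (median 3792) in the 6 WT unstimulated libraries, 898 to 1056 (median 959) in AhR-KO unstimulated, 1116 to 1521 (median 1335) in WT LPS and 831 to 1063 (median 924) in AhR-KO LPS. Every WT unstimulated library lay above every other library, and WT LPS lay above AhR-KO LPS without overlap, while the range in WT unstimulated spanned 2.01-fold. WT unstimulated replicate 5, which had the smallest total (8.54 M counts in peaks), held the lowest WT unstimulated level in 989 of the 1319 peaks (74.98%). Replicate 1, with the next smallest total (15.5 M), held the highest in 648 (49.1%). Depth also differed with treatment in WT. Totals were 8.54 to 23.1 M in WT unstimulated and 25.1 to 34.6 M in WT LPS, against 18.9 to 25.7 M in AhR-KO unstimulated and 22.4 to 28.5 M in AhR-KO LPS. The part of depth or library quality in this was not tested. All 6 WT LPS libraries lay below all 6 WT unstimulated libraries in 920 WT-only peaks, where the same pattern held in 17.8% of all tested peaks. Without replicate 5 the count was 1239, beside 20.5% of all tested peaks, and the leaving out was chosen after the data were seen. The rule fixed the direction of this count.

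**Figure D2:**
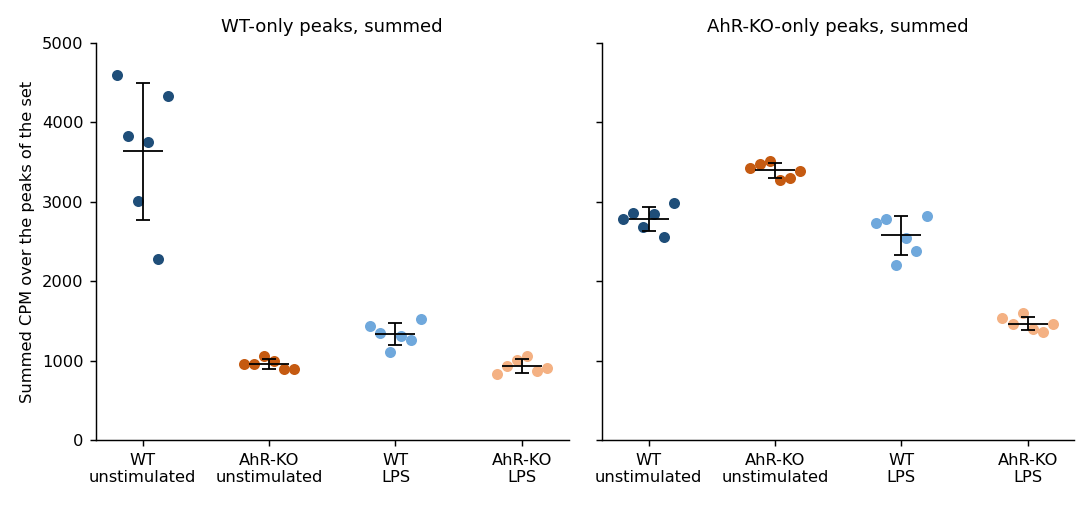
Summed CPM over the WT-only peaks (left) and the AhR-KO-only peaks (right) in each library, with 1 point per library ordered by replicate number and bars for the mean ± SD of 6. WT unstimulated libraries spread from 2282 to 4594 CPM on the left, and the AhR-KO LPS libraries lie lowest on the right, at 1364 to 1598 CPM.

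Calls of the authors' kind were counted with edgeR fitted to the whole table. Differentially accessible regions (DARs) were peaks whose fold reached 1.5 at an adjusted p no higher than 0.05, and 1312 of the 1319 WT-only and all 647 AhR-KO-only peaks passed the filter on low counts. All 1312 tested WT-only peaks were lower DARs with LPS in WT, beside 21.6% of all tested peaks. The interaction was a DAR in 1140 WT-only peaks in the direction the rule set, beside 5.83% of all tested peaks. It was a DAR in 573 AhR-KO-only peaks, beside 4.58%. Between unstimulated genotypes 1250 WT-only peaks were lower DARs in AhR-KO and 0 were higher, where 12.6% of all tested peaks were lower and 9.95% higher. With LPS 613 were lower and 53 higher DARs, where 13.1% and 13.4% of all tested peaks were. In AhR-KO itself, LPS gave 50 higher and 0 lower DARs among WT-only peaks (27.3% and 21.5% of all tested). Without overlap of single libraries, 1117 WT-only peaks were lower in AhR-KO at rest (11.6% of all tested) and 328 with LPS (9.86%). These contrasts share the libraries that the rule used, and nothing is read from the counts.

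Among single WT-only peaks, those first by the interaction showed the low AhR-KO level at rest in several strengths. The peak assigned to Adgb, which encodes a globin-family protein, lay between genes at chr10:10333396-10333988, 95.9 kb from the transcription start site (TSS). It held 1.87 to 3.35 CPM (median 2.596) in WT unstimulated, 0.311 to 0.617 CPM (median 0.437) in AhR-KO unstimulated, 0.838 to 1.504 CPM (median 1.09) in WT LPS and 1.03 to 1.89 CPM (median 1.28) in AhR-KO LPS. The unstimulated genotypes did not overlap, and with LPS WT fell while AhR-KO rose, so that the LPS groups overlapped. The edgeR log2 change with LPS was -1.24 ± 0.17 (SE) in WT and 1.63 ± 0.22 in AhR-KO. Near Vnn3, a vanin gene, the peak at chr10:23830156-23830433 held 1.64 to 2.198 CPM (median 1.94) in WT unstimulated, 0.0833 to 0.271 CPM (median 0.249) in AhR-KO unstimulated, 0.462 to 0.757 CPM (median 0.555) in WT LPS and 0.402 to 0.678 CPM (median 0.573) in AhR-KO LPS. It too was low in every AhR-KO unstimulated library and reached about the same level in both LPS groups. The peak 1.64 kb from the TSS of Mfsd9, at chr1:40792299-40792542, held 0.81998 to 2.64 CPM (median 1.77) in WT unstimulated, 0.3099 to 0.661 CPM (median 0.496) in AhR-KO unstimulated, 0.389 to 0.702 CPM (median 0.474) in WT LPS and 0.767 to 1.12 CPM (median 0.943) in AhR-KO LPS. Here AhR-KO LPS lay above WT LPS in every library.

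Other peaks showed a partial difference at rest that was absent with LPS. Tgfbr2 encodes the type II receptor for TGF-β, a factor present in all cultures. Its peak at chr9:116181699-116182442, 6.34 kb from the TSS, held 9.61 to 12.8 CPM (median 12.5) in WT unstimulated, 4.01 to 5.44 CPM (median 4.97) in AhR-KO unstimulated, 4.08 to 5.29 CPM (median 4.45) in WT LPS and 3.297 to 4.36 CPM (median 4.17) in AhR-KO LPS. WT unstimulated stood apart from the other 3 groups, which overlapped. The log2 change with LPS was -1.41 ± 0.09 (SE) in WT and -0.27 ± 0.10 in AhR-KO. Intronic peaks of Arhgef7, an exchange factor for Rac and Cdc42, and of Dst, a cytoskeletal linker, were also highest in WT unstimulated, but rose slightly with LPS in AhR-KO, and their WT LPS libraries lay above the AhR-KO unstimulated ones. The Arhgef7 peak (chr8:11781462-11782377) had medians of 7.78 and 2.94 CPM in WT without and with LPS, and 1.96 and 2.52 CPM in AhR-KO. The Dst peak (chr1:33918103-33918753) had medians of 7.53 and 2.84 CPM in WT without and with LPS, and 2.099 and 2.703 CPM in AhR-KO. A peak in an intron of Arhgap42 that was assigned to Gm16485 had medians of 6.83 and 2.04 CPM in WT without and with LPS, and 1.05 and 1.99 CPM in AhR-KO. An intronic peak of Arntl, which encodes the clock factor BMAL1 of the same bHLH-PAS family as AhR, had medians of 4.91 and 1.55 CPM in WT without and with LPS, and 1.57 and 1.98 CPM in AhR-KO.

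At other peaks the level in AhR-KO was low with and without LPS. An intronic peak of Kit, the receptor for stem cell factor, at chr5:75621778-75622762 held 2.69 to 5.15 CPM (median 4.14) in WT unstimulated, 0.485 to 0.676 CPM (median 0.535) in AhR-KO unstimulated, 1.39 to 2.27 CPM (median 1.59) in WT LPS and 0.603 to 1.21 CPM (median 0.903) in AhR-KO LPS. All WT libraries of a treatment lay above all AhR-KO libraries of that treatment. A peak in an intron of Cryzl2 had medians of 3.75 and 0.563 CPM in WT without and with LPS, and 0.402 and 0.554 CPM in AhR-KO. A peak 23.4 kb from Syt7, which encodes a calcium sensor of membrane fusion, had medians of 1.51 and 0.327 CPM in WT without and with LPS, and 0.0754 and 0.358 CPM in AhR-KO. All 3 were low in AhR-KO before LPS. The promoter-side peak of Hif3a, a hypoxia-inducible factor of the bHLH-PAS family, differed from these. At chr7:17062718-17063313, 0.291 kb from the TSS, it held 3.397 to 5.06 CPM (median 4.61) in WT unstimulated, 2.2996 to 4.01 CPM (median 2.96) in AhR-KO unstimulated, 1.35 to 1.79 CPM (median 1.57) in WT LPS and 2.74 to 7.51 CPM (median 4.02) in AhR-KO LPS. The unstimulated groups overlapped in part, and every AhR-KO LPS library lay above every WT LPS library. There were 43 WT-only peaks of that arrangement, with unstimulated means within 1.5-fold and an LPS mean at least 1.5-fold higher in AhR-KO. Values of the first 6 peaks of each set are plotted by library.

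**Figure D3:**
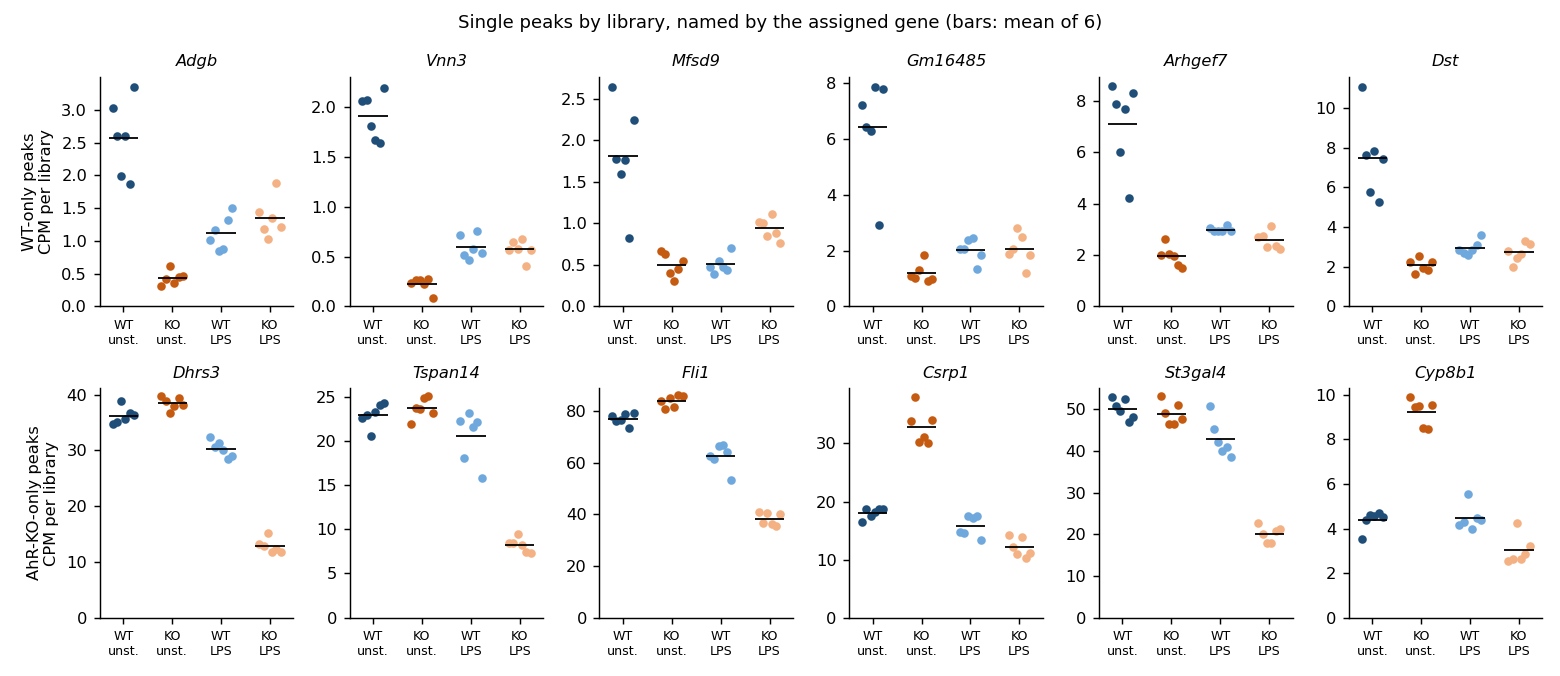
CPM in each of the 24 libraries for the 6 WT-only (top) and 6 AhR-KO-only peaks (bottom) that stood first by the interaction of genotype and LPS, each panel named by the assigned gene and with its own y axis from 0. Points are libraries and bars are means of 6. In the top row the WT unstimulated mean is the highest of the 4, and in the bottom row the AhR-KO LPS libraries are lowest on average.

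AhR-KO-only peaks were mostly open in both genotypes at rest. Their median level was 2.06 CPM in WT unstimulated and 2.10 in WT LPS, against 2.72 in AhR-KO unstimulated and 1.15 in AhR-KO LPS. The WT unstimulated mean was below 1 CPM in 144 of 647 (22.3%). Summed over the set, the level was 2559 to 2980 CPM (median 2814) in WT unstimulated, 3279 to 3516 (median 3402) in AhR-KO unstimulated, 2209 to 2827 (median 2637) in WT LPS and 1364 to 1598 (median 1462) in AhR-KO LPS. The WT groups overlapped, AhR-KO unstimulated lay above all of them and AhR-KO LPS below. All 6 AhR-KO LPS libraries lay below all 6 AhR-KO unstimulated libraries in 578 peaks, a pattern found in 21% of all tested peaks and fixed in direction by the rule.

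A pair of arrangements made up most of the set. In 249 peaks (38.5%) the genotypes were within 1.5-fold at rest and AhR-KO was at least 1.5-fold lower with LPS, with medians of 3.23 and 3.25 CPM in WT and 3.45 and 1.38 CPM in AhR-KO. In 213 peaks (32.9%) AhR-KO was at least 1.5-fold higher at rest and within 1.5-fold with LPS, with medians of 1.14 and 1.09 CPM in WT and 2.51 and 1.08 CPM in AhR-KO. Another 52 (8.04%) were lower in AhR-KO under both conditions, 42 were higher at rest and lower with LPS, 61 were within 1.5-fold under both, and 30 were higher under both. The unstimulated level was at least 1.5-fold higher in AhR-KO in 285 peaks (44.0%), compared with 12.1% of the 108980 peaks with an AhR-KO unstimulated mean of 1 CPM or more. In AhR-KO against WT at rest 277 were higher and 53 lower DARs, beside 9.95% and 12.6% of all tested peaks. With LPS 325 were lower and 27 higher DARs, beside 13.1% and 13.4%. All 6 WT libraries lay below all 6 AhR-KO libraries at rest in 247 peaks, beside 9.63% of all tested, and all 6 AhR-KO below all 6 WT with LPS in 223, beside 9.86%.

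**Figure D4:**
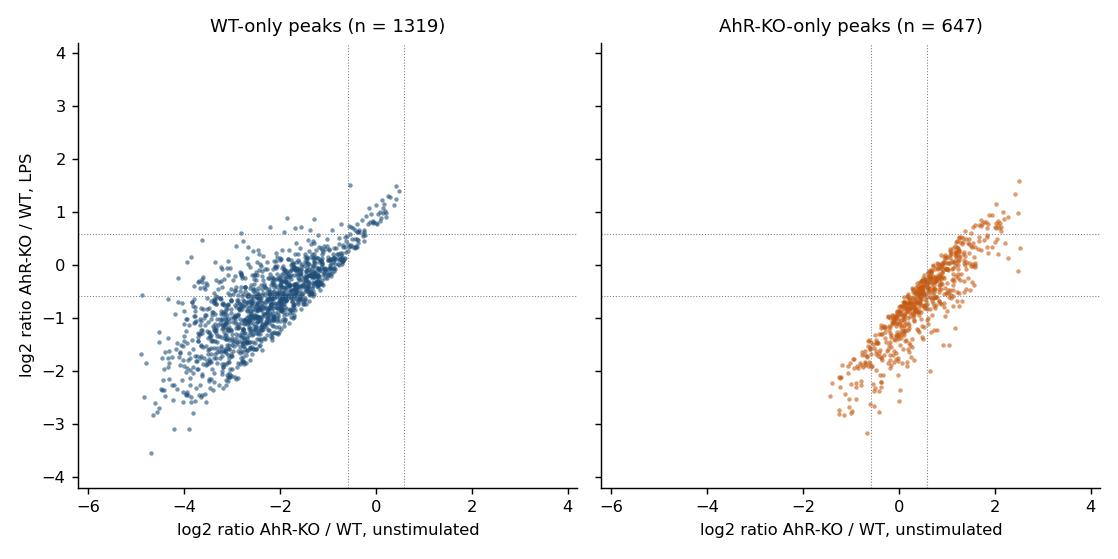
Log2 ratio of the AhR-KO to the WT mean CPM, unstimulated on the x axis and with LPS on the y axis, 1 point per peak, for WT-only (left) and AhR-KO-only peaks (right). Dotted lines mark a 1.5-fold difference. Of the WT-only peaks 95.4% lie left of the left dotted line, and the AhR-KO-only peaks run from the lower middle to the right.

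Among single AhR-KO-only peaks, those of the first arrangement were high in all groups but AhR-KO LPS. Dhrs3 encodes a retinaldehyde reductase, and its intronic peak at chr4:144908698-144909443 held 34.7 to 38.8 CPM (median 35.97) in WT unstimulated, 36.6 to 39.7 CPM (median 38.5) in AhR-KO unstimulated, 28.4 to 32.3 CPM (median 30.3) in WT LPS and 11.8 to 15.2 CPM (median 12.6) in AhR-KO LPS. The unstimulated genotypes overlapped, WT LPS fell slightly, and every AhR-KO LPS library lay far below the rest. The log2 change with LPS was -0.27 ± 0.06 (SE) in WT and -1.58 ± 0.06 in AhR-KO. An intronic peak of Tspan14, a tetraspanin that accompanies the protease ADAM10, held 20.6 to 24.3 CPM (median 23.1) in WT unstimulated, 21.9 to 25.03 CPM (median 23.6) in AhR-KO unstimulated, 15.8 to 23.2 CPM (median 21.8) in WT LPS and 7.302 to 9.48 CPM (median 8.36) in AhR-KO LPS at chr14:40949612-40950787. A peak in an exon of Dcps, nearest to the sialyltransferase gene St3gal4 (chr9:35122784-35124777), held 46.97 to 52.9 CPM (median 50.1) in WT unstimulated, 46.4 to 53.2 CPM (median 48.3) in AhR-KO unstimulated, 38.6 to 50.7 CPM (median 41.6) in WT LPS and 17.9 to 22.8 CPM (median 20.5) in AhR-KO LPS. In both, AhR-KO LPS alone stood apart.

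Fli1, an ETS factor of the blood lineage, had 4 AhR-KO-only peaks. The strongest, an intronic peak at chr9:32507415-32511018, held 73.4 to 79.2 CPM (median 77.3) in WT unstimulated, 80.96 to 86.2 CPM (median 84.4) in AhR-KO unstimulated, 53.4 to 67.02 CPM (median 63.3) in WT LPS and 35.6 to 40.9 CPM (median 38.4) in AhR-KO LPS. Its log2 change with LPS was -0.32 ± 0.05 (SE) in WT and -1.13 ± 0.05 in AhR-KO, so WT also fell, by less than the limit. The peak 0.119 kb from the TSS (chr9:32539258-32541476) held 47.2 to 51.02 CPM (median 49.7) in WT unstimulated, 40.3 to 44.4 CPM (median 41.97) in AhR-KO unstimulated, 33.6 to 43.4 CPM (median 42.03) in WT LPS and 19.1 to 21.9 CPM (median 20.3) in AhR-KO LPS. In that peak all WT unstimulated libraries lay above all AhR-KO unstimulated ones, and AhR-KO LPS was lowest without overlap. The other Fli1 peaks, at chr9:32502370-32502948 and chr9:32562298-32563055, had AhR-KO medians of 5.04 and 9.13 CPM without LPS and 2.11 and 4.18 CPM with it. Rasa3, a GTPase-activating protein for Ras and Rap, also had 4, among them the peak over its TSS at chr8:13676303-13677996. That peak held 52.6 to 56.9 CPM (median 54.97) in WT unstimulated, 57.5 to 70.98 CPM (median 61.01) in AhR-KO unstimulated, 43.3 to 50.7 CPM (median 49.4) in WT LPS and 28.9 to 33.99 CPM (median 30.5) in AhR-KO LPS, so that AhR-KO LPS lay below every other library. The Rasa3 intronic peak at chr8:13640352-13641432, whose sequence is given above, differed in kind and held 2.27 to 3.25 CPM (median 2.81) in WT unstimulated, 5.73 to 8.24 CPM (median 7.396) in AhR-KO unstimulated, 2.07 to 3.08 CPM (median 2.41) in WT LPS and 2.33 to 3.35 CPM (median 2.95) in AhR-KO LPS. There AhR-KO unstimulated was the group that stood apart.

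Peaks over or near a TSS were also found at Slc12a7, a potassium-chloride cotransporter, Cd24a, a surface glycoprotein, and Slc25a1, the mitochondrial citrate carrier. The Slc12a7 peak (chr13:73763175-73765653) had medians of 30.98 and 25.5 CPM in WT without and with LPS, and 32.8 and 15.2 CPM in AhR-KO. The Cd24a peak (chr10:43577602-43581475) had medians of 41.4 and 37.6 CPM in WT without and with LPS, and 36.9 and 18.2 CPM in AhR-KO. The Slc25a1 peak (chr16:17927549-17929113) had medians of 26.5 and 21.4 CPM in WT without and with LPS, and 33.6 and 15.1 CPM in AhR-KO. AhR-KO LPS was lowest in each, without overlap with any other group.

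The second arrangement, high in AhR-KO at rest, was seen near Csrp1, a LIM-domain protein, and Cyp8b1, the sterol 12-alpha-hydroxylase. Csrp1 had 4 AhR-KO-only peaks, and the one at chr1:135687737-135688957 held 16.6 to 18.7 CPM (median 18.4) in WT unstimulated, 30.1 to 38.1 CPM (median 32.4) in AhR-KO unstimulated, 13.3 to 17.5 CPM (median 15.97) in WT LPS and 10.3 to 14.3 CPM (median 11.7) in AhR-KO LPS. AhR-KO unstimulated lay above all other libraries. The peak 8.64 kb from Cyp8b1 (chr9:121924946-121925420) held 3.54 to 4.69 CPM (median 4.52) in WT unstimulated, 8.48 to 9.91 CPM (median 9.46) in AhR-KO unstimulated, 3.99 to 5.55 CPM (median 4.33) in WT LPS and 2.53 to 4.25 CPM (median 2.75) in AhR-KO LPS. Ly86, which encodes MD-1, a partner of the TLR4-like protein RP105, had 3 such peaks, with AhR-KO medians of 4.82, 9.32 and 19.9 CPM without LPS and 2.12, 4.29 and 8.14 CPM with it. Hs3st3b1, a heparan sulfate sulfotransferase, had 3 AhR-KO-only peaks of the first arrangement, with AhR-KO LPS medians of 6.05, 1.14 and 3.13 CPM. Back in the first arrangement, an intronic peak of Tiam2, an exchange factor for Rac, had medians of 7.85 and 6.74 CPM in WT without and with LPS, and 7.68 and 2.73 CPM in AhR-KO, and one in an exon of Tmem268 had medians of 24.5 and 20.8 CPM in WT without and with LPS, and 24.2 and 11.6 CPM in AhR-KO.

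Peaks were also counted by gene lists, each peak going to the protein-coding gene whose TSS lay nearest. Such an assignment does not show that the peak acts on that gene. Over all genes, 1.16% of peaks with 1 CPM or more in WT at rest were WT-only and 0.594% of those in AhR-KO were AhR-KO-only. The lists were chosen with earlier results known, and no test was run on them.

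For eicosanoid synthesis and receptors, the subject of the study, 8 of 414 peaks (1.93%) were WT-only and 0 of 398 were AhR-KO-only. They were assigned to 7 genes: the phospholipases Pla2g4a and Pla2g5, the cyclooxygenases Ptgs1 and Ptgs2, and the prostaglandin E2 receptors Ptger2, Ptger3 and Ptger4. Naming all of them went beyond the naming rule and was decided after their values were seen. The intronic Ptger3 peak at chr3:157581269-157582002 held 3.28 to 6.31 CPM (median 4.57) in WT unstimulated, 0.855 to 1.901 CPM (median 1.35) in AhR-KO unstimulated, 1.68 to 2.87 CPM (median 1.905) in WT LPS and 0.843 to 1.36 CPM (median 1.102) in AhR-KO LPS. The genotypes did not overlap at rest, and with LPS every AhR-KO library lay below every WT library. The peak 15.3 kb from Ptgs2, the inducible cyclooxygenase, held 1.21 to 1.87 CPM (median 1.36) in WT unstimulated, 1.09 to 1.73 CPM (median 1.42) in AhR-KO unstimulated, 0.551 to 1.08 CPM (median 0.616) in WT LPS and 0.8495 to 1.49 CPM (median 1.31) in AhR-KO LPS at chr1:150084476-150084746. Its unstimulated genotypes overlapped at about the same level, whereas at the other 7 the AhR-KO unstimulated median was 0.111 to 1.35 CPM and below the WT median. The Pla2g5 intronic peak had medians of 1.79 and 0.534 CPM in WT without and with LPS, and 0.288 and 0.151 CPM in AhR-KO. By these medians it fell in AhR-KO too, while the rule used means. Its AhR-KO LPS libraries spread from 0.121 to 0.558 CPM, so its AhR-KO ratio compared low and scattered levels. The peak 22.2 kb from Ptgs1 had medians of 1.45 and 0.611 CPM in WT without and with LPS, and 0.246 and 0.2595 CPM in AhR-KO. The peak nearest to Ptger4 had medians of 1.96 and 0.586 CPM in WT without and with LPS, and 0.245 and 0.212 CPM in AhR-KO.

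For TLR4 and NF-κB signalling, 3 of 652 peaks (0.460%) were WT-only and 2 of 634 (0.315%) AhR-KO-only. Map3k7 encodes the kinase TAK1, and its WT-only peak in an exon at chr4:32015974-32016502 held 2.58 to 6.89 CPM (median 5.71) in WT unstimulated, 0.1804 to 0.441 CPM (median 0.304) in AhR-KO unstimulated, 1.33 to 2.75 CPM (median 1.87) in WT LPS and 0.176 to 0.447 CPM (median 0.378) in AhR-KO LPS. It was low in every AhR-KO library under both conditions. An intronic peak of Nfkb1, the p105 and p50 subunit, had medians of 2.598 and 1.24 CPM in WT without and with LPS, and 0.938 and 1.248 CPM in AhR-KO. A peak 17.3 kb from Nfkbia, the inhibitor IκBα, lay just beyond the left-out stretch of chromosome 12 and had medians of 1.52 and 0.426 CPM in WT without and with LPS, and 0.451 and 0.354 CPM in AhR-KO. The AhR-KO-only peak nearest to Ikbke, a kinase related to TBK1, lay in an intron of Srgap2 and held 5.27 to 11.4 CPM (median 8.51) in WT unstimulated, 15.9 to 19.9 CPM (median 18.4) in AhR-KO unstimulated, 4.77 to 12.7 CPM (median 11.4) in WT LPS and 5.78 to 9.06 CPM (median 6.97) in AhR-KO LPS. AhR-KO unstimulated stood above every other library. The peak nearest to Map3k8, the kinase TPL2, had medians of 12.4 and 10.2 CPM in WT without and with LPS, and 5.37 and 2.73 CPM in AhR-KO.

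Among cytokines, chemokines and their receptors, 6 of 667 peaks (0.8996%) were WT-only and 2 of 662 (0.302%) AhR-KO-only. The WT-only peak in an intron of Il1rap, the accessory chain of the IL-1 and IL-33 receptors, held 2.81 to 7.795 CPM (median 5.29) in WT unstimulated, 0.316 to 0.705 CPM (median 0.394) in AhR-KO unstimulated, 0.838 to 1.46 CPM (median 1.18) in WT LPS and 0.358 to 0.523 CPM (median 0.468) in AhR-KO LPS at chr16:26629971-26630317. WT LPS fell below WT unstimulated yet stayed above every AhR-KO library. Weaker WT-only peaks lay near Ifnar1, a chain of the type I interferon receptor, with medians of 1.35 and 0.366 CPM in WT without and with LPS, and 0.0894 and 0.255 CPM in AhR-KO, and near Csf1r, the M-CSF receptor, with medians of 1.002 and 0.325 CPM in WT without and with LPS, and 0.111 and 0.383 CPM in AhR-KO. The AhR-KO-only peak near the chemokine gene Ccl6 had medians of 0.722 and 0.904 CPM in WT without and with LPS, and 2.79 and 1.07 CPM in AhR-KO. The one nearest to Cxcr4, 221 kb away, had medians of 1.44 and 2.11 CPM in WT without and with LPS, and 1.75 and 0.629 CPM in AhR-KO, and its WT LPS libraries spread from 0.809 to 4.04 CPM.

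Macrophage transcription factor genes held 18 WT-only peaks of 2166 (0.831%), assigned to 16 genes, and 13 AhR-KO-only peaks of 2121 (0.613%), assigned to 9. Bach2, Foxo1, Klf13, Myc and Runx3 had peaks of both kinds. At Ets1, an ETS factor next to Fli1 on the chromosome, the WT-only intronic peak whose sequence is given above held 3.62 to 6.84 CPM (median 5.28) in WT unstimulated, 0.857 to 2.34 CPM (median 1.42) in AhR-KO unstimulated, 0.907 to 1.66 CPM (median 1.27) in WT LPS and 1.09 to 1.65 CPM (median 1.38) in AhR-KO LPS at chr9:32650764-32651140. Only WT unstimulated stood apart. The peak 128 kb from Jun, an AP-1 subunit, held 7.12 to 10.4 CPM (median 9.43) in WT unstimulated, 2.97 to 4.78 CPM (median 4.24) in AhR-KO unstimulated, 2.35 to 4.02 CPM (median 3.43) in WT LPS and 2.35 to 4.102 CPM (median 3.38) in AhR-KO LPS and had the same group apart. An intronic peak of Rara, a retinoic acid receptor, had medians of 3.72 and 1.64 CPM in WT without and with LPS, and 0.958 and 1.11 CPM in AhR-KO. Of AhR-KO-only peaks, the one nearest to Klf13, a zinc finger factor, had medians of 7.42 and 6.27 CPM in WT without and with LPS, and 7.96 and 3.78 CPM in AhR-KO. That nearest to Hes1, a repressor downstream of Notch, had medians of 0.392 and 0.639 CPM in WT without and with LPS, and 0.905 and 0.461 CPM in AhR-KO. Its AhR-KO unstimulated libraries spread from 0.767 to 1.85 CPM, and their mean met the limit of 1 CPM while their median did not.

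Genes of the TGF-β pathway held 6 WT-only peaks of 536 (1.12%) and 3 AhR-KO-only peaks of 511 (0.587%). Besides Tgfbr2, the WT-only peaks included those nearest to the signal transducers Smad4, with medians of 9.64 and 3.77 CPM in WT without and with LPS, and 1.72 and 1.42 CPM in AhR-KO, and Smad2, with medians of 3.96 and 1.201 CPM in WT without and with LPS, and 0.424 and 0.4403 CPM in AhR-KO. Over the TSS of Tgfbi, a matrix protein induced by TGF-β, the AhR-KO-only peak at chr13:56609268-56609833 held 8.29 to 11.9 CPM (median 10.6) in WT unstimulated, 13.9 to 15.5 CPM (median 15.02) in AhR-KO unstimulated, 8.46 to 10.2 CPM (median 8.91) in WT LPS and 4.86 to 8.25 CPM (median 6.28) in AhR-KO LPS. AhR-KO was above WT in every library at rest, and AhR-KO LPS was below WT LPS in every library. The peak in an intron of Dym that was assigned to Smad7, the inhibitory SMAD, had medians of 3.96 and 4.67 CPM in WT without and with LPS, and 5.06 and 2.36 CPM in AhR-KO. An intronic peak of Tgfbr1, the type I receptor, had medians of 0.338 and 0.313 CPM in WT without and with LPS, and 0.714 and 0.4404 CPM in AhR-KO. Its AhR-KO unstimulated libraries spread from 0.353 to 2.22 CPM. The rule used means, and by its medians the Tgfbr1 peak met neither the limit of 1 CPM nor that of 0.5.

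Among AhR, hypoxia and kynurenine genes, 1 of 210 peaks (0.476%) was WT-only and 2 of 207 (0.966%) were AhR-KO-only. The WT-only peak lay in an exon of Kmo, the kynurenine 3-monooxygenase, at chr1:175646948-175647381 and held 2.58 to 5.03 CPM (median 3.76) in WT unstimulated, 0.475 to 0.947 CPM (median 0.577) in AhR-KO unstimulated, 1.07 to 2.51 CPM (median 1.92) in WT LPS and 0.323 to 1.01 CPM (median 0.532) in AhR-KO LPS. The lowest WT library of either treatment lay above the highest AhR-KO library. The AhR-KO-only peak in the Ugt1a cluster, assigned to the glucuronosyltransferase Ugt1a6b, had medians of 2.25 and 2.23 CPM in WT without and with LPS, and 3.39 and 1.69 CPM in AhR-KO, and the one in an intron of Prkch nearest to Hif1a had medians of 1.86 and 1.81 CPM in WT without and with LPS, and 2.41 and 1.26 CPM in AhR-KO. No peak of either set was assigned to Ahrr, Tiparp, Cyp1a1 or Cyp1b1, AhR target genes that are also in this list. With so few genes nothing is read from this.

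In the last 3 lists the sets were small. Phagocytic receptors held 1 of 313 (0.319%) WT-only and 1 of 326 (0.307%) AhR-KO-only peaks, both in introns of Mertk, a receptor for the uptake of dying cells. The WT-only Mertk peak had medians of 1.39 and 0.683 CPM in WT without and with LPS, and 0.783 and 0.768 CPM in AhR-KO, and the AhR-KO-only one, elsewhere in the introns, had medians of 1.302 and 1.302 CPM in WT without and with LPS, and 1.14 and 0.488 CPM in AhR-KO. Integrin, adhesion and migration genes held 5 of 856 (0.584%) WT-only and 5 of 831 (0.602%) AhR-KO-only peaks. Of these the Dock8 intronic peak, at a guanine nucleotide exchange factor for Cdc42, held 2.69 to 3.81 CPM (median 3.25) in WT unstimulated, 5.33 to 8.29 CPM (median 6.098) in AhR-KO unstimulated, 1.95 to 4.88 CPM (median 3.57) in WT LPS and 0.847 to 1.44 CPM (median 1.16) in AhR-KO LPS at chr19:25036756-25037356. AhR-KO unstimulated was above and AhR-KO LPS below every WT library. A peak 3.71 kb from Icam1, an adhesion receptor, had medians of 1.64 and 1.68 CPM in WT without and with LPS, and 3.999 and 1.8001 CPM in AhR-KO, and one near Itgb3, the integrin β3 chain, had medians of 3.697 and 3.705 CPM in WT without and with LPS, and 1.88 and 0.951 CPM in AhR-KO. WT-only peaks in this list included an intron of Arhgap15, a Rac GTPase-activating protein (3.26 and 0.9696 CPM in WT without and with LPS, and 0.508 and 1.004 CPM in AhR-KO), an intron of Arhgef3 (1.01 and 0.379 CPM in WT without and with LPS, and 0.124 and 0.275 CPM in AhR-KO), and a peak near Fn1, fibronectin (2.68 and 0.945 CPM in WT without and with LPS, and 0.949 and 1.09 CPM in AhR-KO), all as medians. Lipid and lysosome genes held 4 of 352 (1.14%) WT-only and 2 of 359 (0.557%) AhR-KO-only peaks. The WT-only peaks nearest to Fabp5, a fatty acid carrier, and Ctsl, a lysosomal protease, had medians of 3.42 and 0.823 CPM in WT without and with LPS, and 0.249 and 0.358 CPM in AhR-KO, and of 1.51 and 0.523 CPM in WT without and with LPS, and 0.626 and 0.5799 CPM in AhR-KO. The AhR-KO-only peak in an intron of Lpl, the lipoprotein lipase, had medians of 1.35 and 1.11 CPM in WT without and with LPS, and 2.97 and 1.45 CPM in AhR-KO. In none of the 9 lists did more than 1.93% of the eligible peaks belong to a set.

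The positions of members were counted by gene, by neighbour and by chromosome. The 1319 WT-only peaks were assigned to 1155 genes, 208 of them (15.8%) lay within 50 kb of another, and no gene had more than 6. The 647 AhR-KO-only peaks were assigned to 594 genes, 105 (16.2%) lay within 50 kb of another, and no gene had more than 4. Neighbours were not counted for other peaks, so neither scatter nor clustering is read from these shares. Every chromosome in the rule held both kinds, from 0.871 to 1.46% of eligible peaks for WT-only and from 0.366 to 0.854% for AhR-KO-only.

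The genes with the most WT-only peaks were Adgb with 6 and Clnk, Tmem121, Lrmda and Gpc5 with 4 each. The 6 peaks assigned to Adgb lay 7.72 to 140 kb from its TSS, between genes, and 1 of them (chr10:10480048-10480532) was as open in AhR-KO as in WT at rest, at medians of 3.84 and 3.41 CPM. Clnk encodes an adaptor of immune receptor signalling. Its strongest peak, at chr5:39257508-39258757, held 12.7 to 20.6 CPM (median 17.02) in WT unstimulated, 3.97 to 7.98 CPM (median 4.599) in AhR-KO unstimulated, 6.27 to 10.2 CPM (median 7.19) in WT LPS and 2.77 to 7.51 CPM (median 5.39) in AhR-KO LPS. The other Clnk peaks had AhR-KO unstimulated medians of 0.142 to 0.414 CPM. The 4 peaks assigned to Tmem121 lay among the immunoglobulin heavy-chain constant genes. Of these, one lay inside Igha, one 2.42 kb from Igha, one inside Ighg2b and one 1.80 kb from Ighg1. The strongest, at chr12:113304151-113304878, held 4.22 to 13.2 CPM (median 9.41) in WT unstimulated, 0.333 to 0.531 CPM (median 0.439) in AhR-KO unstimulated, 1.24 to 2.24 CPM (median 1.57) in WT LPS and 0.316 to 0.758 CPM (median 0.4896) in AhR-KO LPS. The B cell markers Cd79a and Pax5 had no peak at the TSS, and the summed level of the 3 B cell markers that did was 1.29 to 2.48 CPM in WT unstimulated and 1.06 to 1.72 in AhR-KO unstimulated. With LPS this sum was higher, at 3.41 to 4.73 CPM in WT and 4.38 to 5.62 in AhR-KO, while the peaks above fell in WT. Most of the rise in WT lay in Ms4a1, from a mean of 0.749 to 2.73 CPM. The part of B cells in these peaks was not tested. In Lrmda, a gene linked to pigment cells, 3 intronic peaks had AhR-KO medians of 0.164 to 0.290 CPM at rest, and the fourth, at chr14:22535214-22535828, had medians of 8.01 and 3.32 CPM in WT without and with LPS, and 5.96 and 5.37 CPM in AhR-KO. Gpc5, a glypican, had 4 with AhR-KO medians of 0.271 to 0.670 CPM at rest.

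Most members of both sets lay away from promoters. Of the WT-only peaks 32 (2.43%) lay within 1 kb of a protein-coding TSS, 119 in other exons, 635 in introns and 533 between genes. Of the AhR-KO-only peaks 38 (5.87%) lay within 1 kb of a TSS, 61 in exons, 320 in introns and 228 between genes. The TSS share was 2.85% in peaks closed in both and 12.5% in all peaks eligible in WT. WT-only peaks were narrow, with a median width of 410 bases, against 566 in AhR-KO-only peaks, 567 in peaks closed in both and 763 in all eligible in WT. WT-only peaks were also low in level, and the part of level in their width was not tested. Repeat-masked bases made up at least 50% of the 300 bases around the peak's centre in 8.72% of WT-only and 7.88% of AhR-KO-only peaks.

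Besides Hif3a, WT-only peaks within 1 kb of a TSS included Gpr161, an orphan receptor of primary cilia, Aif1, which encodes the macrophage protein IBA1, Syne3, a nesprin of the nuclear envelope, and Shf, an SH2-domain adaptor. The Gpr161 peak at chr1:165301123-165301756 held 2.93 to 6.7002 CPM (median 5.56) in WT unstimulated, 0.529 to 0.951 CPM (median 0.604) in AhR-KO unstimulated, 0.769 to 1.36 CPM (median 1.07) in WT LPS and 0.421 to 0.877 CPM (median 0.456) in AhR-KO LPS. Every WT unstimulated library lay above every other library. The Aif1 peak, 0.284 kb from a TSS, had medians of 1.32 and 0.309 CPM in WT without and with LPS, and 0.163 and 0.314 CPM in AhR-KO. The Syne3 peak had medians of 5.06 and 2.05 CPM in WT without and with LPS, and 1.61 and 1.53 CPM in AhR-KO, and the Shf peak had medians of 3.23 and 1.16 CPM in WT without and with LPS, and 1.02 and 0.923 CPM in AhR-KO.

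The sequence under the sets was compared by exact motif matches in the central 300 bases on both strands. A match describes letters and not binding. RUNX (TGTGGT) was found in 667 of 1319 WT-only peaks (50.6%, 95% exact binomial interval 47.8 to 53.3%), in 34.9% of AhR-KO-only peaks, in 34.6% of peaks closed in both and in 27.5% of all peaks eligible in WT. Because a low level could go with the share, it was also read within levels. Among peaks of 1 to 2 CPM in WT unstimulated it was 52.5% in WT-only, 33.1% in peaks closed in both and 29.4% in all eligible. Among peaks of 5 CPM or more it was 47.6, 35.4 and 25.3%. Of WT-only peaks 11.9% held a match in the 40-base bin centred 40 bases from the peak's centre, toward higher coordinates, and 4.32% in the bin 280 bases away. The shares were 6.35 and 3.50% in peaks closed in both and 4.73 and 3.34% in all eligible, so each class rose toward the centre. The outer bin lies beyond the edge of a peak of the median WT-only width, 410 bases. By arrangement, 55.4% of the 722 WT-only peaks that stayed lower in AhR-KO with LPS held RUNX and 46.0% of the 526 that came within 1.5-fold. Peaks that were at least 2-fold higher in WT at rest but kept above 0.8 of that level with LPS (2841) held RUNX in 41.3%. Over the whole peak, whose width differs between these classes, that order turned, with RUNX in 63.6% of WT-only, 66.4% of the 2841 kept, 54.0% of closed in both and 55.001% of all eligible peaks.

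PU.1 (GAGGAAGT) was found in 15.2% of WT-only peaks and 15.2% of peaks closed in both, against 8.19% of AhR-KO-only and 8.18% of all eligible in WT, and in 6.90% of the 2841 kept peaks. Over whole peaks the shares were 19.6% in WT-only, 22.7% in closed in both and 16.7% in all eligible. C/EBP (TTGCNNAA) was held by 8.57% of WT-only peaks, 15.6% of AhR-KO-only peaks, 20.1% of peaks closed in both and 15.5% of all eligible. NF-κB matches were held by 1.29% of WT-only and 5.56% of AhR-KO-only peaks, with 1.90% in peaks closed in both and 4.14% in all eligible. AP-1 (TGANTCA) was held by 9.40 and 10.7%, below the 14.5% of all eligible and above the 5.73% of peaks closed in both. The AhR core (GCGTG), which also lies inside the searched EGR motif, was held by 12.2% of WT-only peaks, 17.5% of AhR-KO-only peaks, 13.5% of peaks closed in both and 18.6% of all eligible. The nuclear receptor letters AGGTCA were held by 26.3 and 20.4%, against 19.7% of all eligible.

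The GAS letters (TTCNNNGAA) were held by 120 of 647 AhR-KO-only peaks (18.5%, 95% exact binomial interval 15.6 to 21.8%), by 8.72% of WT-only peaks, 10.4% of peaks closed in both and 10.6% of all peaks eligible in AhR-KO. Within levels of 1 to 2, 2 to 5 and 5 or more CPM in AhR-KO unstimulated the share was 16.3, 18.2 and 21.8%, against 8.55, 10.5 and 11.3% in peaks closed in both. TTC and GAA spaced by 4 bases rather than 3, a search added after the data were seen, were held by 7.73% of AhR-KO-only peaks and 8.14% of all eligible. By arrangement the GAS share was 16.5% in the 249 peaks lower with LPS only, 18.8% in the 213 higher at rest only and 33.3% in the 42 that were both, with an interval of 19.6 to 49.5%. The 52 peaks lower in AhR-KO under both conditions held RUNX in 57.7% (43.2 to 71.3%), while the 213 higher at rest held it in 29.1%. In the 2104 peaks that were higher in AhR-KO at rest but kept with LPS the GAS share was 14.3%. Over whole peaks GAS was held by 30.9% of AhR-KO-only peaks, 26.96% of all eligible in AhR-KO, 26.9% of the 2104 and 21.1% of peaks closed in both. Intervals cover counting error only, and neighbouring peaks are not independent.

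**Figure D5:**
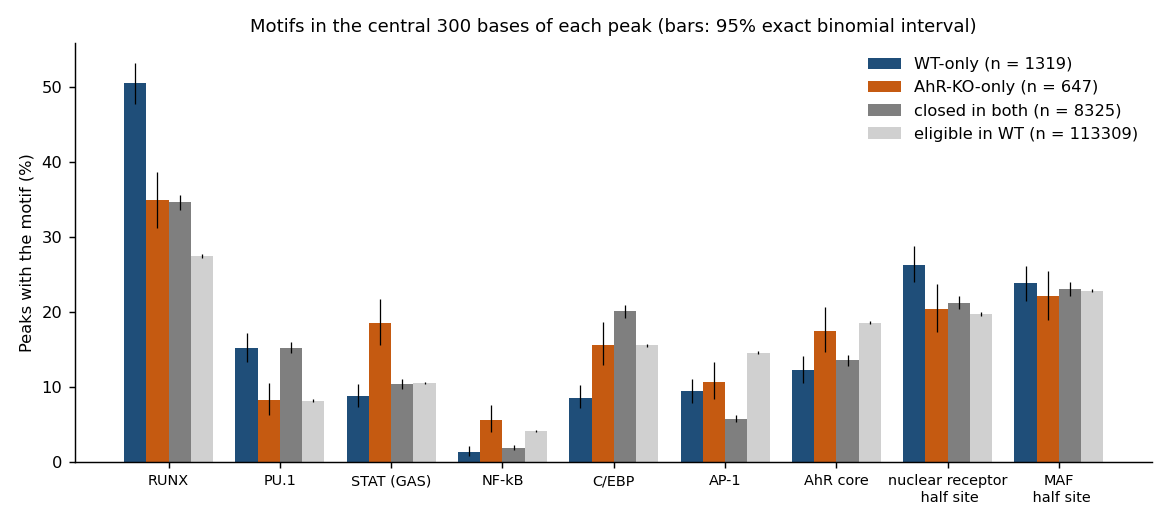
Percent of peaks whose central 300 bases hold each of 9 motifs, for WT-only, AhR-KO-only, closed in both and all peaks eligible in WT, with 95% exact binomial intervals as bars. Of the 4 sets, RUNX is highest in WT-only peaks (50.6%) and GAS in AhR-KO-only peaks (18.5%).

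The peaks that MACS2 called in each library alone are another step from the same reads, so they are not independent of the rule. A called peak overlapped 68.2 to 89.4% of WT-only peaks in 5 WT unstimulated libraries and 22.4% in replicate 5. The range was 8.04 to 11.4% in AhR-KO unstimulated, 14.7 to 29.5% in WT LPS and 6.52 to 10.5% in AhR-KO LPS. In 1085 WT-only peaks (82.3%) none of the 6 AhR-KO unstimulated libraries had a call, and in 793 (60.1%) none of the WT LPS libraries did. For AhR-KO-only peaks the range was 41.0 to 68.6% in WT unstimulated, 76.4 to 85.3% in AhR-KO unstimulated, 57.2 to 70.8% in WT LPS and 33.8 to 47.1% in AhR-KO LPS. In 159 of these (24.6%) all 6 AhR-KO LPS libraries still had a call. An overlap of 1 base was enough for this, so such a call need not cover the peak. For peaks closed in both the range was 68.3 to 90.2% in WT unstimulated and 82.4 to 89.8% in AhR-KO unstimulated. It was 44.7 to 51.9% in WT LPS and 35.6 to 48.3% in AhR-KO LPS, the latter much as in AhR-KO-only peaks. Calls over all eligible peaks were not counted.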

How the data were processed

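The 24 ATAC-seq libraries came as 1 table of raw counts per consensus peak and 24 lists of broad peaks with −log10 q-values. The authors made both with the nf-core atacseq pipeline on mm10 at default settings, which calls MACS2 broad peaks in each library and merges them, and counted read pairs with featureCounts 2.0.1, so the deposited counts are not normalized. A pair counted for every peak that it overlapped by at least 0.2 of its length. Each deposited broad peak carries the −log10 q-value of MACS2 and was used for overlap with bedtools 2.31.1, while its fold enrichment over background, deposited by the authors as MACS2 gave it, entered no result. The counts of a library summed to 8.54 to 34.6 M, which limits the precision of low peaks. Groups came from the labels. Coordinates of consensus peaks are as the table gives them (mm10), with starts 1 below the first base, and those of printed sequences count from 1.

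From the counts, CPM was computed on the column total. Each peak took the protein-coding gene whose TSS was closest in GENCODE vM21 (basic, 21951 genes). edgeR 4.0.16 (R 4.3.3) fitted all 24 libraries with group as the only term, filterByExpr, TMM and the robust quasi-likelihood test, 174193 peaks were tested and p-values were adjusted by Benjamini-Hochberg over all of them. The scripts were tested on simulated counts. DESeq2 1.42.0 was an alternative. Motifs (18) were searched in GRCm38.

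The sets, the 9 gene lists, the motifs and the alternatives were chosen with earlier results of these data known. The text names, per set, the 12 peaks with the smallest interaction p (order only), up to 3 per gene list, 5 near a TSS, the 5 genes with the most peaks and the neighbours of each limit. Of the peaks that this picks, 3 are not reported here. The study describes the libraries of a group as separate animals of a single experiment, and whether an animal gave both treatments is not stated in the sources used here. Same-numbered libraries were not fitted as pairs (correlation of deviations 0.0464 to 0.343 between treatments in WT and 0.00774 to 0.209 in AhR-KO).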

Additional observations from a re-analysis of the deposited data

Results flagged for a closer look

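Over 23 of the peaks listed first by interaction and the summed levels of both sets of peaks, 100 sets of 6 libraries were checked for a library far from the others by Dixon's criterion, and 9 stood out. Chance alone flags about 1 in 20 such sets. At WT-only peaks, the lowest AhR-KO unstimulated library at Vnn3 held 0.0833 CPM, the lowest WT unstimulated library at Gm16485 held 2.93 CPM, the lowest AhR-KO LPS library at Tgfbr2 held 3.30 CPM and the highest AhR-KO unstimulated library at Syt7 held 0.311 CPM, each apart from the other 5 of its group. At AhR-KO-only peaks, Cyp8b1 had a low WT unstimulated library (3.54 CPM) and a high WT LPS library (5.55 CPM). Single high libraries stood at Slc12a7 (35.6 CPM) and Tmem268 (29.4 CPM) in AhR-KO unstimulated, and a single low WT LPS library stood at the Rasa3 TSS peak (43.3 CPM).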

How the results depend on the processing

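The sets depended on the limits more than on the scaling. Of the 1319 WT-only and 647 AhR-KO-only peaks, 1317 and 603 remained with TMM totals (1366 and 605 peaks), 1198 and 630 with DESeq2 size factors (1210 and 746), and 1067 and 502 with group medians (1406 and 730). With 0.5 CPM added, 312 AhR-KO-only peaks were found, 226 of them among the 647, and 663 of 1106 WT-only peaks were among the 1319. A minimum of 2 CPM left 649 and 408, no minimum gave 2277 and 1070, and 1 CPM in both genotypes left 229 WT-only peaks. An other ratio above 1 left 592 and 194, and a closing ratio of at most 0.4 left 759 and 168. Leaving out 1 library gave 1160 to 1572 WT-only and 609 to 706 AhR-KO-only peaks, and the 1572 came without WT unstimulated replicate 5. Interaction DARs then numbered 1037 to 1197 and 546 to 590. Resting shares were taken over the unchanged 1319 and 647 peaks, so they do not cover a new choice of peaks. They were 95.1 to 95.9% and 42.2 to 44.8%. Same-numbered unstimulated and LPS libraries were not treated as pairs, since their correlation of deviations was over 0.1 in 5 of 6 in WT and 3 of 6 in AhR-KO rather than in all, yet 4 of 6 and 3 of 6 correlated best with their own number, so a partial pairing remains possible. With the replicate block the sets held 1307 and 577 peaks, and the interaction gave 1175 and 594 DARs among the unchanged 1319 and 647 peaks. A fold of 2 left 365 AhR-KO-only interaction DARs and resting shares of 90.4 and 24.3%. Peaks over a TSS made up 0.910 and 4.02%, and peaks within 5 kb 10.2 and 17.2%. Over whole peaks RUNX and PU.1 were held by 63.6 and 19.6% of WT-only and GAS by 30.9% of AhR-KO-only peaks, which narrowed the gaps to all eligible peaks and put WT-only peaks below the kept peaks for RUNX (66.4%) and below peaks closed in both for PU.1 (22.7%). A further 25 motif shares also moved, all upward, among them AP-1 to 16.5 and 21.6%, C/EBP to 15.2 and 29.7%, NF-κB to 2.50 and 12.2% and the 4-base STAT spacing to 11.1 and 17.5% in WT-only and AhR-KO-only peaks. Requiring 50% of the peak to be covered by a call lowered the median shares of WT-only peaks to 3.98% in unstimulated AhR-KO and to 11.4% (WT) and 4.51% (AhR-KO) with LPS, and of AhR-KO-only peaks to 35.2 and 59.7% in unstimulated WT and AhR-KO and to 51.4 and 21.02% with LPS. A −log10 q of at least 2 gave 7.66 and 6.94% for WT-only peaks in AhR-KO unstimulated and AhR-KO LPS. The remaining alternatives moved no count by more than 1.5-fold and no share beyond its interval or 1 SD. The cause of these shifts was not tested. At 1 CPM a library of 8.54 M counts holds few counts per peak, which limits ratios between low levels. The counts without WT unstimulated replicate 5 and the 4-base STAT spacing were chosen after seeing the data.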

Other observations

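Outside the rule, the left-out stretch of chromosome 12 held 19 peaks of the WT-only kind among 1457 eligible (1.30%) and 5 of the AhR-KO-only kind among 1357 (0.368%). Chromosome X held 18 of 2980 (0.604%) and 9 of 2910 (0.309%). On the chromosomes of the rule the shares were 1.16 and 0.594%. None of these peaks entered the results above.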
